A study of Mus musculus with 2 samples.

Results

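The semaphorins, plexins and neuropilins of mouse perivascular cells (PVCs) were followed in a study of KAI1, the tetraspanin encoded by Cd82, which asked how its loss in these cells changes the signals that restrain blood vessel growth. Members were found by gene symbol, as Sema3 to Sema7 genes, Plxna to Plxnd genes, Nrp1 and Nrp2, which gave 31 of the 20211 symbols measured, namely 20 semaphorins, 9 plexins and 2 neuropilins. RNA was sequenced from primary PVCs of the aorta, from C57BL/6 wild type (WT) mice and from Kai1 KO mice on the same background, both grown in DMEM, with 10% FBS per the labels and a higher serum concentration in the study's methods. The methods give purchased C57BL/6 mice as young adults of either sex, within a range of weeks. Which sex and age and how many mice stood behind each culture, and the making of the Kai1 KO allele, are not given in the sources used here. Each genotype had 1 library, so that no value below has a replicate check and no test was possible. A difference between the libraries may come as well from the animals, the cultures or the making of the libraries.

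Semaphorins are guidance ligands built around a shared sema domain. The vertebrate class 3 members are secreted, those of classes 4, 5 and 6 span the membrane, and Sema7a is held at the surface by a lipid anchor. Plexins are their receptors and carry a GTPase-activating domain inside the cell, through which they weaken integrin adhesion and collapse actin structures. Neuropilins lack such a domain and serve as co-receptors, joining class 3 semaphorins to A-type plexins and VEGF to its own receptors. Cells of the vessel wall make several of these ligands, and Sema3a, Sema3e and Sema3f are known to hold back endothelial sprouting or migration.

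The libraries held an estimated 29500000 reads for WT and 26800000 for Kai1 KO, as read from the steps of low values, which lay within 0.15 of a whole read for 82.3% and 76.2% of the low values used. Values are RPKM, reads scaled to transcript length and to the number of mapped reads, so that levels can be compared between genes. The targeted gene Cd82 stood at 12.8 in WT and 2.62 in Kai1 KO. Of 13 mural cell markers, Acta2 (3820 and 2580, the WT library first), Pdgfrb (44.7 and 31.6) and Cspg4 (15.4 and 8.27) were high. Tagln (633 and 307), Cnn1 (120 and 49.2), Mcam (4.9 and 0.264) and Myh11 (2.96 and 0.346) were more than 2-fold lower in Kai1 KO. All 7 of these were lower there. Rgs5 (0.063 and 0.233), Kcnj8 (0 and 0.791) and Abcc9 (0.0411 and 0.0303) were at or near 0 in WT and below 1 in Kai1 KO. Of the fibroblast markers, Col1a1 was at 924 and 534 and Pdgfra at 2.01 and 0.854, whereas Lum (0.0541 in WT) and Fap (0.217 in WT) were listed at 0 in Kai1 KO. Y-linked genes were detected in WT, with Ddx3y at 6.56 and Eif2s3y at 3.17, and were listed at 0 in Kai1 KO. A difference in sex between the libraries would coincide with genotype for every member, autosomal ones included. Its part in the values below was not tested.

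The most abundant receptors, Plxnb2 and Plxna1, and the most abundant ligand, Sema3f, were the same in both libraries. Below them the order differed among the plexins and among the semaphorins. Genes whose RPKM averaged 1 or more across the libraries are called expressed here. Of the 31 members, 15 were expressed by this measure and 16 were not, and 9 members were below 0.5 in both libraries. Among the 15, Sema3a, Sema3e and Plxna2 were more than 2-fold higher in the Kai1 KO library and Sema3b and Sema7a more than 2-fold lower, on the scale of log2(RPKM + 0.1), which understates the change of low genes. That is 3 higher and 2 lower, against 7.98% higher and 7.81% lower of all 10068 expressed genes. The median log2 ratio of Kai1 KO to WT was -0.25 for the 15 members, -0.63 for the 8 semaphorins among them and 0.25 for the 5 plexins, and 0.08 for all 10068 genes. Scaling both libraries to Gapdh or to the same sum of RPKM lowered the median of all genes to -0.41 and -0.40, and under both Sema3a, Sema3e and Plxna2 came to lie within 2-fold, with log2 ratios from 0.85 to 0.99, while Sema3b and Sema7a stayed more than 2-fold lower. A scaling moves all genes nearly alike, and against the median of all genes the log2 ratio of Sema3a was higher by 1.34, that of Sema3e by 1.24 and that of Plxna2 by 1.37 in the values as deposited.

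**Figure D1:**
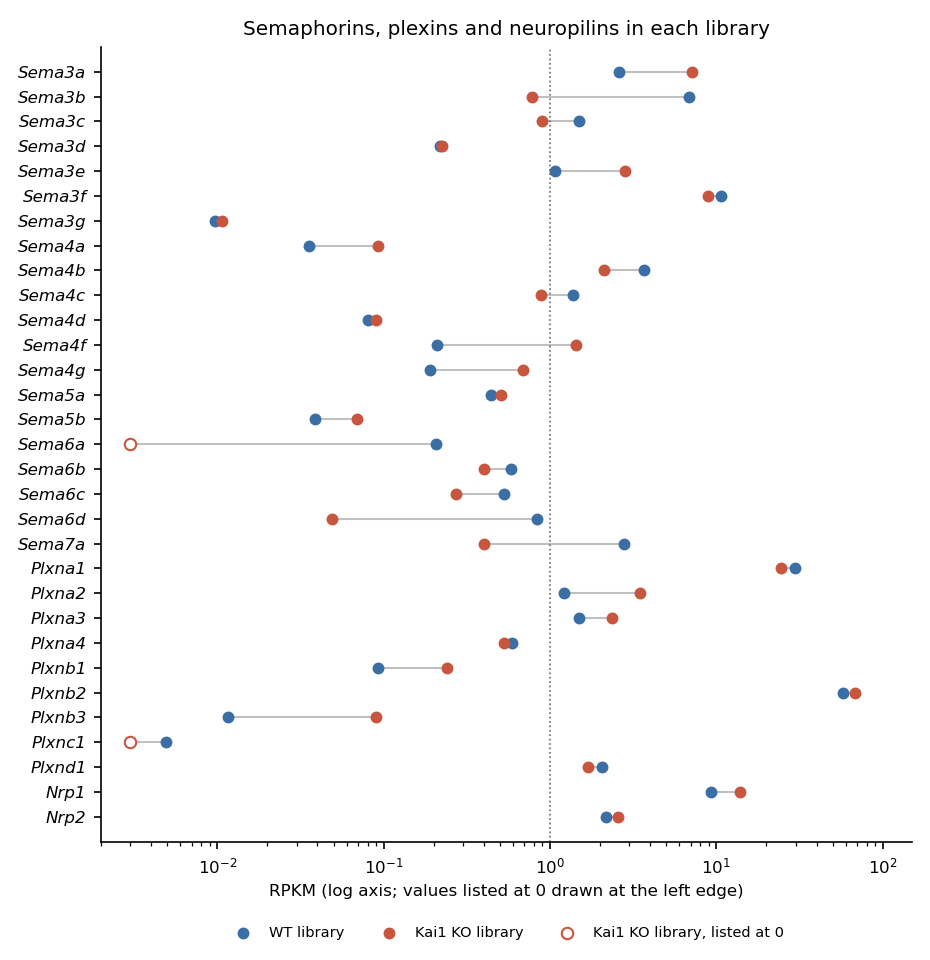
RPKM of each member in the WT library (blue) and the Kai1 KO library (red) on a log axis, with 1 library per genotype and a dotted line at an RPKM of 1. Plxnb2 and Plxna1 are the most abundant in both libraries, Sema3b, Sema6d and Sema7a lie far to the left in Kai1 KO, Sema4f far to the right, and open circles mark Sema6a and Plxnc1, which were listed at 0 there.

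**Figure D2:**
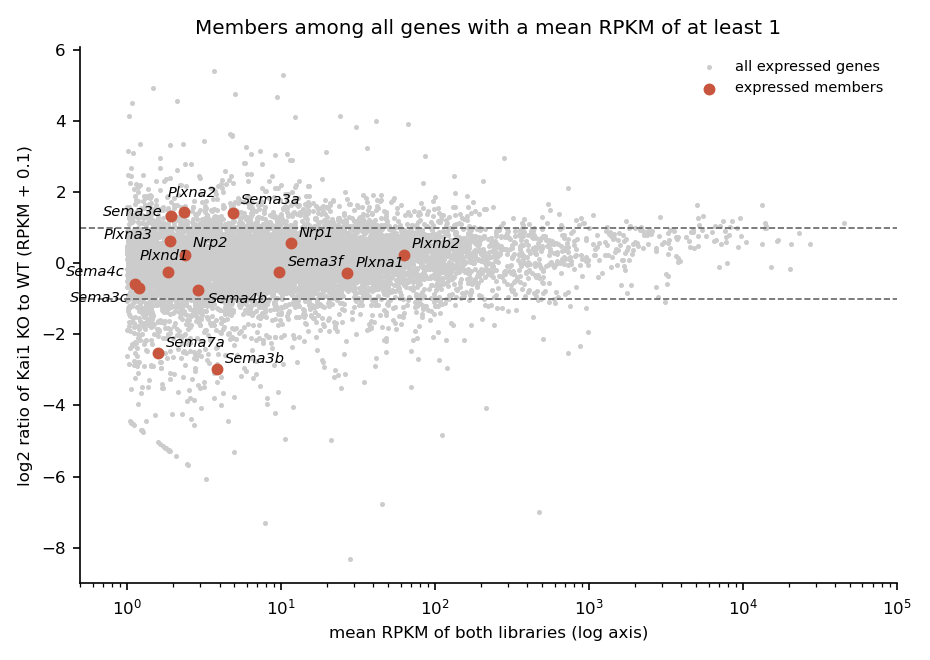
The log2 ratio of Kai1 KO to WT, from RPKM + 0.1, against the mean RPKM of both libraries for the 10068 expressed genes (grey) and the 15 members among them (red), with dashed lines at a 2-fold change. Sema3a, Sema3e and Plxna2 lie above the upper line, though within it when the libraries are scaled to Gapdh or to the same sum, and Sema3b and Sema7a lie below the lower line.

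The class 3 semaphorins made up most of the ligand mRNA. In the WT library Sema3f was the most abundant semaphorin at an RPKM of 10.6, followed by Sema3b (6.89), Sema4b (3.65), Sema7a (2.78) and Sema3a (2.60). In the Kai1 KO library Sema3f was again first at 8.94, now followed by Sema3a (7.14), Sema3e (2.83), Sema4b (2.11) and Sema4f (1.44). The 20 semaphorins summed to 33.8 in WT and 27.8 in Kai1 KO. Sema3f thus kept a like share of that sum, 31.3% in WT and 32.1% in Kai1 KO, whereas Sema3b went from 20.4% to 2.81% and Sema3a from 7.68% to 25.7%. Such shares are free of any scaling between the libraries.

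**Figure D3:**
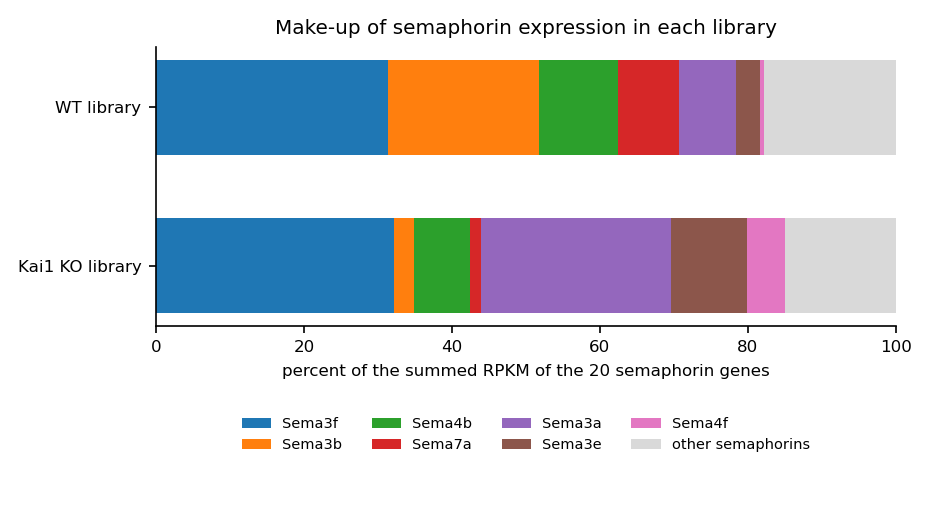
Percent of the summed RPKM of the 20 semaphorin genes taken by each of 7 semaphorins and by the others together, for the WT library (top) and the Kai1 KO library (bottom). Sema3f takes a like share in both, Sema3b and Sema7a shrink from 20.4% and 8.22% to 2.81% and 1.44%, and Sema3a, Sema3e and Sema4f widen to 25.7%, 10.2% and 5.17%.

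Sema3a, the prototype repellent that signals through Nrp1 and A-type plexins, lies on chromosome 5 from 13125593 to 13602565 on the plus strand of NCBI37 (mm9). Its RPKM was 2.60 in WT and 7.14 in Kai1 KO, from about 440 and 1097 reads, which made it 2.75-fold higher with a 95% counting interval from 2.45 to 3.07. Of all expressed genes, 96.9% had a lower log2 ratio. Sema3e, which binds plexin-D1 without a neuropilin and is known for its effect on endothelial cells, lies downstream of Sema3a on the same strand, from 14025276 to 14256689. Its RPKM was 1.07 in WT and 2.83 in Kai1 KO, 2.65-fold higher with an interval from 2.25 to 3.13. With 1 RPKM added in place of 0.1 its log2 ratio was 0.89, less than 2-fold. These intervals come from estimated reads over the longest annotated transcript and cover counting error only.

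Sema3a and Sema3e are 422.7 kb apart and 0 expressed genes lie wholly between them. Both other class 3 genes of this stretch of chromosome 5 differed from them. Sema3d, upstream of Sema3a by 536.6 kb, was low in both libraries, at 0.219 and 0.225, and Sema3c, 2823.4 kb past Sema3e, had an RPKM of 1.50 in WT and 0.897 in Kai1 KO. Sema3c, which binds both neuropilins and is known for its part in cardiac outflow tract development, was thus 1.67-fold lower, with an interval from 1.34 to 2.09, and its log2 ratio was -1.14 when scaled to Gapdh and -1.13 with equal sums, past 2-fold. Within a library, the ratio of Sema3e to Sema3c was 0.713 in WT and 3.15 in Kai1 KO.

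The sequences before the start sites of the 4 expressed members that passed 2-fold and have an entry in the RefSeq promoter set are printed here to show which features the promoters of these genes share. Of the 31 members, 26 have an entry there. Each line gives the 250 bases before a RefSeq start (promoter set built on GRCm38.p6), found by exact match at 1 place on its chromosome of NCBI37, all on the plus strand, 5′ to 3′, with matches to the GC box GGGCGG on either strand in capitals. The windows are chr5:13396534-13396783 for Sema3a, chr5:14025026-14025275 for Sema3e, chr1:196445773-196446022 for Plxna2 and chr9:57787669-57787918 for Sema7a. The Sema3a window precedes an internal start, since the longest annotated extent of the gene begins further upstream.
Sema3a: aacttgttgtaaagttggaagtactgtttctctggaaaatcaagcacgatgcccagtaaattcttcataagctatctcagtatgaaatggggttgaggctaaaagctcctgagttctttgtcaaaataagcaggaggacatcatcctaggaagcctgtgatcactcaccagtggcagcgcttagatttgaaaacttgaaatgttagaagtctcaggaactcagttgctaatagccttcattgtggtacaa
Sema3e: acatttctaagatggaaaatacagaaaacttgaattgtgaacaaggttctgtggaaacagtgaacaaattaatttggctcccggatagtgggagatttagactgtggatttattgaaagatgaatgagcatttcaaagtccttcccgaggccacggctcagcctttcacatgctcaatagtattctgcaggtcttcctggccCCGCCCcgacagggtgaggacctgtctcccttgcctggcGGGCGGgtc
Plxna2: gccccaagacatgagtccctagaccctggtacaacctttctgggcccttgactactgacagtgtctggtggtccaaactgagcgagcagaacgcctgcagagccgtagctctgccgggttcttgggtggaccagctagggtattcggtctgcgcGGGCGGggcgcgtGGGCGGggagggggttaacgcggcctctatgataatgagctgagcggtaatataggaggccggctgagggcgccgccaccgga
Sema7a: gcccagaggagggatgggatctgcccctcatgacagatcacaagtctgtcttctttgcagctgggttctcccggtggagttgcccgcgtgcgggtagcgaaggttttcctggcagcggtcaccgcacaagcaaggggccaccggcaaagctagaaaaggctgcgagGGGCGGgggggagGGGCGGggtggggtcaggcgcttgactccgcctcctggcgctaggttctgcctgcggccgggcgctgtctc

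The Sema3a window had 2 CpG dinucleotides, a GC content of 40.8% and 0 GC boxes. That of Sema3e had 7 CpG and 2 GC boxes, that of Plxna2 had 18 CpG and 2 GC boxes, and that of Sema7a had 17 CpG and 2 GC boxes. The median over all 32851 windows was 6 CpG, and 32.7% of all windows held a GC box. Of the 37 windows of the members, several of which belong to the same gene, 27 held one. TATAAA was in 0 of the 37 windows and in 12.4% of all, CCAAT in 7 and in 33.8% of all, the AP-1 motif TGANTCA in 3 and in 6.75% of all, and a p53 half-site in 2 and in 7.13% of all, each on either strand. None of these 4 motifs occurred in the 4 windows printed. The windows of Plxna2 and Sema7a, which differed in opposite directions, were alike in CpG number and GC boxes, whereas those of Sema3a and Sema3e, both higher in Kai1 KO, were not. A match is only a match of letters, and its absence says nothing of a factor.

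Sema3b, a secreted ligand whose gene is lost or silenced in many lung cancers, had the lowest ratio of all expressed members. The gene spans 107500005 to 107511560 of chromosome 9, on the minus strand. Its RPKM was 6.89 in WT and 0.783 in Kai1 KO, from about 657 and 68 reads, 8.80-fold lower with a counting interval from 6.83 to 11.4. Only 0.874% of expressed genes had a lower log2 ratio than its -2.98. Sema3f, a ligand of Nrp2 and the neighbouring semaphorin, lies 72.3 kb away on the same strand with 1 expressed gene between, and its RPKM was 10.6 in WT and 8.94 in Kai1 KO, 1.19-fold lower with an interval from 1.08 to 1.31. Within a library, Sema3f mRNA was 1.54 times that of Sema3b in WT and 11.4 times in Kai1 KO.

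Of the 12 other expressed genes whose start lies within 200 kb of that of Sema3b, Sema3f among them, 1 passed 2-fold in each direction, and their median log2 ratio was -0.16. Gnai2, a G protein subunit gene that lies between both semaphorins, had an RPKM of 307 in WT and 264 in Kai1 KO. The gene that was lower was Hyal1, a hyaluronidase, at 3.06 and 1.28, and the gene that was higher was Ifrd2, with a log2 ratio of 1.24. The other genes around Sema3b were within 2-fold.

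**Figure D4:**
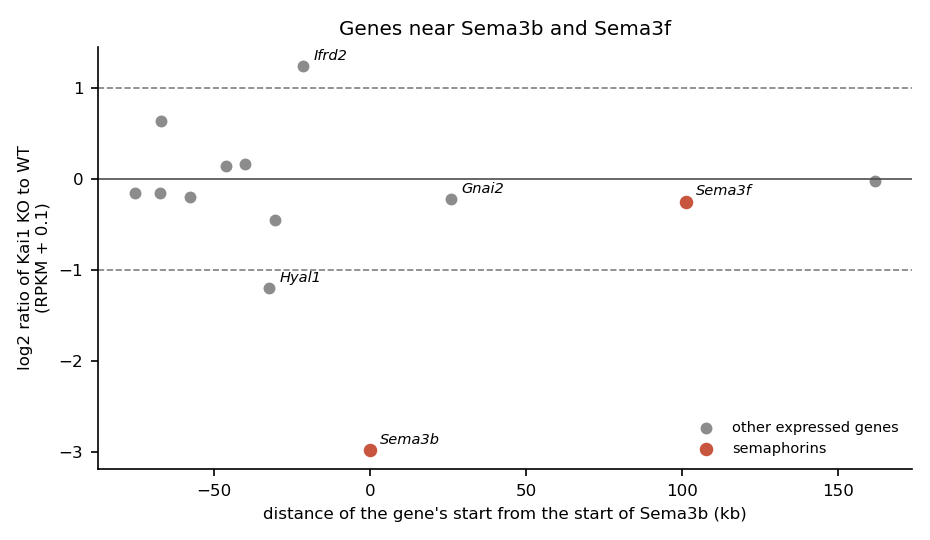
The log2 ratio of Kai1 KO to WT, from RPKM + 0.1, of expressed genes against the distance of their start from that of Sema3b in kb, along chromosome 9. Sema3b stands at -2.98 and Sema3f at -0.25, and the 12 other genes, Sema3f among them, lie between -1.20 and 1.24.

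Sema7a, the lipid-anchored semaphorin that binds integrin beta 1 and plexin-C1, was the other expressed member that was more than 2-fold lower. It lies on chromosome 9 from 57787920 to 57810671 on the plus strand. Its RPKM was 2.78 in WT and 0.402 in Kai1 KO, from about 254 and 33 reads, 6.92-fold lower with an interval from 4.85 to 10.4. Its plexin, Plxnc1, was at 0.00493 in WT, about 1 read, and was listed at 0 in Kai1 KO. The integrin genes Itgb1 (273 and 207) and Itga1 (1.26 and 0.750) were detected in both libraries.

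The class 4 semaphorins, membrane ligands mostly of B-type plexins, did not move one way. Sema4b had an RPKM of 3.65 in WT and 2.11 in Kai1 KO, and Sema4c, a ligand of plexin-B2, one of 1.37 and 0.882. Sema4b was thus 1.73-fold lower, with an interval from 1.46 to 2.07, and Sema4c 1.55-fold lower, with an interval from 1.19 to 2.05. Under scaling to Gapdh their log2 ratios were -1.25 and -1.04, past 2-fold. Sema4f, best known from the nervous system, went the other way, from 0.210 in WT to 1.44 in Kai1 KO, about 24 and 150 reads, 6.87-fold higher with an interval from 4.45 to 11.1. Sema4g had an RPKM of 0.189 in WT and 0.684 in Kai1 KO, 3.61-fold higher with an interval from 2.30 to 6.06, though its log2 ratio was only 0.50 with 1 RPKM added. Sema4a, at 0.0356 and 0.0920, and Sema4d, the high-affinity ligand of plexin-B1, at 0.0808 and 0.0896, rested on 10 reads or fewer per library.

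All 4 class 6 semaphorins, membrane ligands of A-type plexins, had lower values in the Kai1 KO library, and none counted as expressed. Low genes in general were more often lower than higher there. Of all 10143 symbols with a mean RPKM below 1, 1092 were more than 2-fold lower and 402 higher. Over all symbols, 1479 were above 0 in WT and at 0 in Kai1 KO, and 267 were the reverse. Sema6d, a ligand of plexin-A1, had an RPKM of 0.840 in WT and 0.0492 in Kai1 KO, about 155 and 8 reads, 17.1-fold lower with an interval from 8.71 to 41.5. Sema6a was at 0.207 in WT, about 41 reads, and was listed at 0 in Kai1 KO, at least 12.3-fold lower when 0 is read as up to 3 reads, while the exact counting interval allows a difference from 9.65-fold upward. Sema6c had values of 0.527 and 0.274, 1.92-fold lower with an interval from 1.27 to 2.94. Sema6b had values of 0.583 and 0.402, a difference within counting error, as the interval of the ratio of Kai1 KO to WT ran from 0.445 to 1.03. The class summed to an RPKM of 2.16 in WT and 0.725 in Kai1 KO.

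Of the 16 members below the filter on mean RPKM, 2 were thus more than 2-fold higher (Sema4f and Sema4g) and 2 more than 2-fold lower (Sema6a and Sema6d). Of all 10143 symbols below it, 402 were higher and 1092 lower by as much. With 1 RPKM added, the log2 ratios of Sema6a and Sema6d were -0.27 and -0.81, within 2-fold. Counted without the filter, 5 of the 31 members were higher and 4 lower, where 5.96% of all 20211 symbols were higher and 9.29% lower. Those shares include symbols at 0 in both libraries, which cannot pass 2-fold. Of all symbols 5690 were at 0 in WT and 6902 in Kai1 KO, and of the members 0 and 2. The class 5 genes, whose proteins carry thrombospondin repeats, were low in both libraries. Sema5a was at 0.440 and 0.508 and Sema5b at 0.0388 and 0.0687. Sema3g, a class 3 gene known from endothelium, was at 0.00968 and 0.0107, about 1 read in each library.

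**Figure D5:**
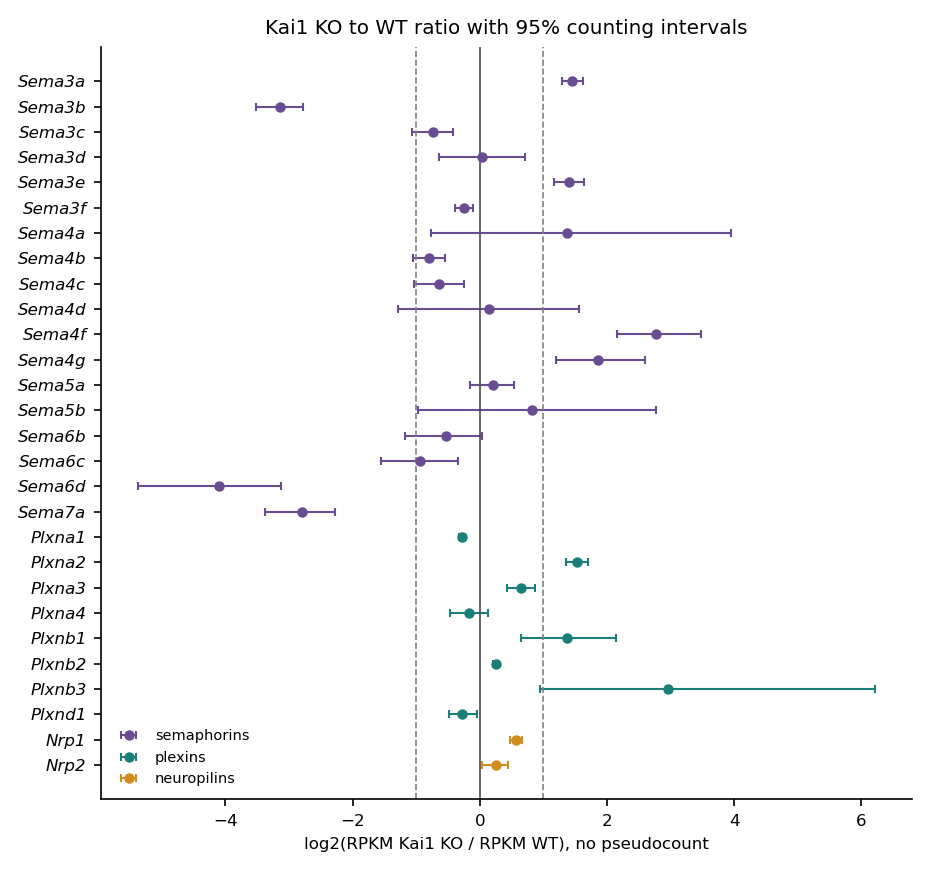
The log2 ratio of RPKM in the Kai1 KO library to that in the WT library, without a pseudocount, for members with at least 10 estimated reads over both libraries and a value above 0 in both. Bars are exact 95% intervals that cover counting error only, the dashed lines mark a 2-fold change, and the bars of Sema3a, Sema3e, Sema4f, Sema4g and Plxna2 lie wholly above the upper line and those of Sema3b, Sema6d and Sema7a wholly below the lower line; with scaling to Gapdh or to equal sums all points move left together, and Nrp2, Plxnb2, Sema3d, Sema4d and Sema5a change side.

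The plexins summed to 92.4 in WT and 101 in Kai1 KO, more than the semaphorins, mostly through Plxnb2 and Plxna1. Of the 5 expressed plexins 1 was more than 2-fold higher and 0 lower, and both neuropilins were within 2-fold. Of the 8 expressed semaphorins, 2 were higher and 2 lower by as much. The shares of all 10068 expressed genes were 7.98% higher and 7.81% lower, and no difference between families this small was tested. Plxnb2, a receptor for class 4 semaphorins, was the most abundant member, with an RPKM of 57.4 in WT and 68.2 in Kai1 KO, and made up 62.1% and 67.5% of the plexin sum. Plxna1, which pairs with neuropilins, followed at 29.6 and 24.5, or 32.0% and 24.2% of that sum. Their counting intervals are narrow, since they rest on many reads, but neither differed by 2-fold. The log2 ratio of Plxnb2 was 0.25 and turned to -0.25 when scaled to Gapdh and to -0.24 with equal sums, so that its direction depended on the scaling. That of Plxna1 was -0.27, and -0.77 when scaled to Gapdh.

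Plxna2, a receptor for Sema6a and, with neuropilins, for Sema3a, was the only expressed plexin that differed by more than 2-fold, except under scaling to Gapdh or to equal sums. It lies on chromosome 1 from 196446023 to 196643063 on the plus strand. Its RPKM was 1.21 in WT and 3.48 in Kai1 KO, from about 387 and 1011 reads, 2.87-fold higher with an interval from 2.56 to 3.24, and 97.0% of expressed genes had a lower log2 ratio. It moved from the fifth to the third most abundant plexin. Within a library, Plxna1 mRNA was 24.4 times that of Plxna2 in WT and 7.03 times in Kai1 KO.

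The other plexins stayed within 2-fold on the log2(RPKM + 0.1) scale. Plxnd1, the receptor of Sema3e, had an RPKM of 2.04 in WT and 1.69 in Kai1 KO, 1.21-fold lower with an interval from 1.04 to 1.40. Plxna4 was at 0.594 and 0.528. Plxna3, a partner of Nrp2 in Sema3f signalling, was at 1.50 and 2.35, 1.57-fold higher with an interval from 1.35 to 1.82. Plxnb1 was at 0.0924 and 0.240, about 23 and 54 reads, 2.60-fold higher with an interval from 1.56 to 4.41. Plxnb3 was at 0.0116 and 0.0899, about 2 and 15 reads, 7.76-fold higher with an interval from 1.92 to 74.4. With 0.01 RPKM added in place of 0.1, their log2 ratios were 1.29 and 2.21, past 2-fold. Plxna3 and Plxnb3 are X-linked, and the libraries differed in Y-linked genes. Over the 270 expressed X-linked genes the median log2 ratio was 0.08, as over all genes. The part of sex was not tested for these plexins or for any other member, X-linked or autosomal.

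Both neuropilins were expressed, Nrp1 well above Nrp2. Nrp1, the co-receptor of Sema3a and VEGF, had an RPKM of 9.31 in WT and 13.9 in Kai1 KO, 1.49-fold higher with an interval from 1.39 to 1.59, and its log2 ratio was 0.57, or 0.07 when scaled to Gapdh. Nrp2, the co-receptor of Sema3f, had values of 2.17 and 2.58 and a log2 ratio of 0.24, which turned to -0.24 when scaled to Gapdh and -0.23 with equal sums. Nrp1 mRNA was 4.29 times that of Nrp2 in WT and 5.38 times in Kai1 KO. Set side by side by ligand, Sema3a was 2.75-fold higher beside Nrp1 at 1.49-fold, all as Kai1 KO over WT. Of the A-type plexins, Plxna1 was at 0.827-fold, Plxna2 at 2.87-fold, Plxna3 at 1.57-fold and Plxna4, not counted as expressed, at 0.89-fold. Sema3e was 2.65-fold higher beside Plxnd1 at 0.829-fold, and Sema3f was at 0.842-fold beside Nrp2 at 1.19-fold and Plxna3 at 1.57-fold. These folds are from the values as deposited. Scaled to Gapdh, the log2 ratio of Plxna3 was 0.14 and that of Sema3f -0.74.

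Other genes of the pathway were taken from lists compiled from general knowledge. Of all 10068 expressed genes, 7.98% were more than 2-fold higher and 7.81% lower. Of 5 VEGF ligands, which share neuropilins with the class 3 semaphorins, all were expressed and 1 was more than 2-fold lower, namely Pgf, from 11.2 in WT to 3.27 in Kai1 KO. The most abundant were Figf, which encodes VEGF-D, at 60.9 and 59.4, and Vegfa at 45.2 and 35.2. Of 19 co-receptors and alternative receptors, 9 were expressed, of which 0 were more than 2-fold higher and 1 more than 2-fold lower. That was Tyrobp, the myeloid adaptor of plexin-A1 and Trem2, from 10.4 to 2.37. In lists this short, a count of 1, as with Pgf and Tyrobp, cannot be told apart from the shares of all expressed genes. The most abundant in this list were Itgb1 and Cd44, the latter at 35.7 and 24.3. Met, the receptor kinase that associates with B-type plexins, was at 1.43 and 2.89, a log2 ratio of 0.97.

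Of 31 listed effectors of plexin signalling found in the tables, 28 were expressed, 0 of them more than 2-fold higher and 3 more than 2-fold lower, with a median log2 ratio of -0.31. The share of all expressed genes that were lower by as much was 7.81%, near that of this list. Those 3 were Fyn, a kinase downstream of plexin-A2 and Sema3a, from 11.9 in WT to 4.12 in Kai1 KO, Limk1, which inactivates cofilin, from 14.2 to 5.16, and Dpysl3, a CRMP family member, from 85.5 to 30.8. The most abundant were Cfl1, encoding cofilin, at 1300 and 1640, and Arhgdia at 506 and 597. Dpysl2, the CRMP first tied to Sema3a, was at 12.3 and 7.33, and Rnd1, which opens the plexin GTPase-activating domain, at 17.5 and 11.4. Of 8 proteases that cut semaphorins or their receptors, 7 were expressed and 0 differed by 2-fold. Furin, which processes class 3 semaphorins, was at 12.8 and 8.82, and the most abundant were Mmp14 at 138 and 83.4 and Adamts1 at 39.3 and 21.9.

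Several members are also used by endothelium, nerve or macrophages, and less RNA per cell cannot be told apart from fewer cells of a type. Of 12 endothelial markers, 3 were at 0 in WT and 10 in Kai1 KO, among them Pecam1 (0.413 in WT) and Cdh5 (0.0267 in WT), and the list summed to 4.80 in WT and 8.41 in Kai1 KO, most of the latter Egfl7. Of the 10 leukocyte and macrophage markers found, 3 were at 0 in each library, and the list summed to 18.4 and 14.8, with Csf1r at 11.7 and 2.66, Cd14 at 1.98 and 10.3, and Ptprc at 0.0407 and 0.00697. Of 10 Schwann cell and neuron markers, 1 was at 0 in WT and 3 in Kai1 KO, and the list summed to 75.3 and 81.8, mostly Tubb3, while S100b was at 13.7 and 3.18 and Sox10 at 0.0134 and 0. Of 9 fibroblast markers, 7 were expressed and 3 of these were more than 2-fold lower, where 7.81% of all expressed genes were. Those 3 were Pdgfra, Col1a2 (824 and 377) and Ly6a (1350 and 569), while Col3a1 was higher, at 67.5 and 101. The list summed to 24700 in WT and 20700 in Kai1 KO, mostly S100a4 at 21500 and 19100. The 13 mural markers summed to 4650 and 2980, mostly Acta2, and of the 7 expressed, 4 were more than 2-fold lower, against the same 7.81%. The part of these differences in the values of the semaphorins was not tested.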

How the data were processed

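RNA of WT and Kai1 KO PVCs was sequenced from 1 library each. The authors aligned reads to mm9 (NCBI37) and deposited RPKM values for RefSeq genes. The submitters' processing notes name TopHat2 2.0.9, Bowtie and Cufflinks, and the authors tested differences with Cuffdiff, whose version is not given in the sources used here. Of 20462 rows in each table, 38 had no symbol and were left out, and 153 symbols on several rows, 0 of them members, were averaged.

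The log2 ratio of Kai1 KO to WT used RPKM + 0.1, a gene counted as expressed when its RPKM averaged 1 or more, and differences of more than 2-fold were counted. Read depth was estimated from the steps of low values of genes with a single GENCODE M1 transcript of over 800 bases, less 200 bases for the fragment, and reads per member from the longest transcript, so that they are approximate. Intervals are exact conditional 95% intervals for the ratio of 2 counts. Exons of 4 members overlap another annotated gene, of which 0 are in the tables. Alternatives were other pseudocounts, scalings and filters, and summed symbols. The read estimates, calls and intervals were tested on simulated counts. These were drawn with the same transcript lengths and fragment offset, so that the choice of the longest transcript was not tested. All members were named, with listed pathway genes past 2-fold and the 2 most abundant of each list, and other genes were named after their values were seen. The members and lists were chosen with earlier results of these data known. Python 3.11.15, numpy 2.4.6, pandas 2.3.3, scipy 1.17.1 and matplotlib 3.10.9 were used.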

Additional observations from a re-analysis of the deposited data

How the results depend on the processing

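Filters and summed symbols leave the ratio of a single member as it is. Under the 6 pseudocounts and scalings, 186 log2 ratios of single members were recomputed, of which 130 moved by less than their counting interval and 56 moved further. Of these 186, 21 crossed the 2-fold line, and 0 of the ratios past 2-fold changed sign. Of the rest, 16 changed sign, each under another scaling and each between 0 and 0.25 in the values as deposited. Scaled to Gapdh and to the same sum of RPKM, the median of all genes was -0.41 and -0.40, that of the members -0.73 and -0.72, that of the semaphorins -1.09 and -1.07 and that of the plexins and neuropilins together -0.24 and -0.23, against 0.25 in the values as deposited. Under both, 0 of the 15 members were more than 2-fold higher and 5 lower. Of all 10068 genes kept, 279 and 287 were higher and 1868 and 1825 lower. These shifts follow from the scaling itself, which moves nearly all genes alike. Without a filter on mean RPKM, 31 members were counted, with 5 higher, 4 lower and a median of 0.03, or -0.12 for the semaphorins. Of all 20211 symbols, 1205 were higher and 1878 lower. With a mean RPKM of at least 5, 4 members were left, with 0 higher, 0 lower and a median of 0.00, or -0.25 for the semaphorins. Of the 6518 genes left, 511 were higher and 350 lower. With 1 RPKM added, the median of the semaphorins was -0.36, since the larger pseudocount shrinks the ratios of low genes. No paired analysis was possible because there was 1 library of each genotype. Read depth limits Sema3g, Sema4a, Sema4d, Sema5b, Plxnb3 and Plxnc1, with 15 estimated reads or fewer in each library.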
